A study of Rattus norvegicus with 15 samples.

Results

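Mithramycin A was compared directly with no drug in rat brain after hemorrhage, by the 3 treated libraries (ICH_MA, replicates 1, 2 and 3) against the 3 untreated ones (ICH, replicates 1, 2 and 5). These are 6 of the 11 libraries in the count table, which also holds 5 sham-operated ones, and its genes were taken by Ensembl ID. Of 15094 genes in the table, 14963 were tested and 131 were removed by a filter on low counts. All animals were Sprague-Dawley rats, sampled 72 h after modelling. ICH rats had an intracerebral hemorrhage, ICH_MA rats had the hemorrhage and mithramycin A, and sham rats had the operation alone. The labels give brain as the tissue and basal ganglia as the origin of the cells. The sources used here do not give the dose, route and timing of the drug, any vehicle given to ICH rats, the way the hemorrhage was made, or the age and sex of the rats. The design names 5 rats per group, and the labels give 1 batch date for all samples. A further 4 labelled samples, 2 of ICH and 2 of ICH_MA, were not analysed here.

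Mithramycin A (plicamycin) is an aureolic acid antibiotic that sits in the minor groove of GC-rich DNA. There it competes with proteins that read such sequences, above all the zinc-finger factor Sp1, which many promoters without a TATA box depend on. Blood that leaks into the basal ganglia is followed over days by swelling, break-down of hemoglobin with release of heme and iron, activation of microglia and astrocytes, and entry of white blood cells. The study asked which of the genes changed by hemorrhage turn back under the drug, with an interest in cuproptosis, the form of cell death driven by copper. None of the 15094 IDs could be matched to a gene symbol, so pathways, cell type markers and the labelled tissue could not be checked, and genes are described by level, size of difference and behaviour across libraries. In bulk tissue, fewer cells of a type and less RNA per cell cannot be told apart.

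Library totals were close, at 58317912 to 65438000 counts in ICH and 57164791 to 66381416 in ICH_MA, and 15055 to 15068 genes had a count in each of the 6. One library stood apart. ICH replicate 5 lay nearer to each treated library than to either of the other ICH libraries. Over the 14421 genes with a mean of at least 1 CPM (the usual count scaled to library size) in the 6 libraries, its median absolute difference in log2 CPM was 0.127 to 0.132 from the ICH_MA libraries. From ICH replicates 1 and 2 it was 0.179 and 0.171. The ICH_MA libraries lay 0.118 to 0.134 from each other, so ICH replicate 5 was about as far from them as they were from one another. ICH replicates 1 and 2 lay 0.147 apart, and 0.167 to 0.202 from the ICH_MA libraries.

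**Figure D1:**
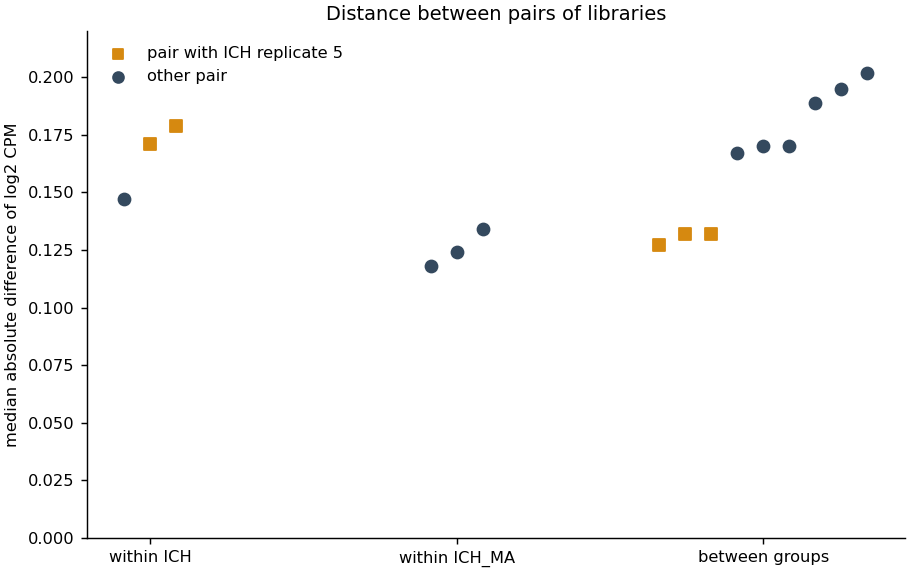
Median absolute difference of log2 CPM (vertical axis) between each pair of the 6 libraries, over 14421 genes, grouped as pairs within ICH, pairs within ICH_MA and pairs across the groups; each symbol is 1 pair and squares are pairs with ICH replicate 5. The 3 squares between the groups (0.127 to 0.132) lie within the range inside ICH_MA (0.118 to 0.134), and the 2 squares inside ICH (0.171 and 0.179) lie above both.

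The same order appeared in the number of genes that differed at least 2-fold between 2 libraries. It was 245 to 384 between ICH replicate 5 and the treated libraries, against 740 and 686 between it and ICH replicates 1 and 2. Treated libraries differed from each other by 200 to 307 such genes, and from ICH replicates 1 and 2 by 515 to 860. The SD of log2 CPM within a group had a median of 0.144 in ICH, 0.109 in ICH_MA and 0.123 in sham, and was larger in ICH than in ICH_MA for 63.3% of the genes. ICH replicate 5 was the library farthest from the median of its group for 40.5% of the genes, replicate 1 for 31.1% and replicate 2 for 28.4%. In ICH_MA the same shares were 36.6%, 29.1% and 34.2% for replicates 1, 2 and 3. When libraries were weighted by how well they fitted their group (limma-voom sample quality weights, where 1 is average), ICH replicate 5 had the lowest weight of the 11, 0.362. The next lowest were sham replicate 1 at 0.6 and ICH replicate 1 at 0.707. The treated libraries had 0.968, 1.54 and 1.14. Most counts of differing genes, the calls and the 4 named genes are therefore given with this library and without it. The 1.5-fold counts and the 2-fold counts among genes of at least 1 CPM are given only with all 6 libraries. So are the split by expression level at unadjusted p and the genes of at least 4-fold.

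Most genes differed little between treated and untreated hemorrhage. Of the 14963 genes tested, the median absolute log2 fold change of ICH_MA against ICH was 0.12 and the central range from the 25th to the 75th percentile was −0.15 to 0.09. The median over all genes was −0.02. The larger differences were mostly towards lower levels in treated brain. With all 6 libraries, 288 genes were at least 2-fold lower and 88 at least 2-fold higher, and for 1.5-fold these numbers were 734 and 310. The 2-fold counts depended on the untreated libraries used. They were 450 lower and 125 higher with ICH replicate 5 left out, 243 and 149 with replicate 2 left out, and 190 and 96 with replicate 1 left out. Among genes of at least 1 CPM, 257 were at least 2-fold lower and 56 higher. In 94 of the 257 and 35 of the 56 the ranges of the libraries of the 2 groups did not overlap. Over all genes tested this was so for 9.14% lower and 7.87% higher. The same libraries gave the size of difference, so a larger share follows from the choice.

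No single gene passed the test with all libraries. By the quasi-likelihood F test of edgeR, with Benjamini-Hochberg adjustment over 14963 genes, 0 genes (0%) had an adjusted p under 0.05, and the smallest adjusted p, 0.176, was shared by 199 genes. On the same libraries limma-voom called 0 as well and DESeq2 called 477 genes (3.19%). Before adjustment, 932 genes (6.23% of those tested) were higher and 1386 (9.26%) lower in ICH_MA at p under 0.05. Their median log2 fold changes were 0.32 and −0.42. These counts were 562 higher and 714 lower with ICH replicate 1 left out, 866 and 1022 with replicate 2 left out, and 1387 and 2199 with replicate 5 left out. Lower genes outnumbered higher ones in each case. Complete separation, where all treated libraries lay on one side of all untreated ones, was seen for 1177 genes higher (7.87%) and 1368 lower (9.14%), with medians of 0.26 and −0.26. With 1 library fewer separation is easier to reach. Of the same 14963 genes, 1579 were higher and 1780 lower with ICH replicate 1 left out. These counts were 1828 and 2238 with replicate 2 left out, and 2518 and 3529 with replicate 5 left out. They were not set against the level that order alone would give. The SE of a log2 fold change had a median of 0.12, and the 95% interval of a gene reached a median of 0.26 to each side. For 87.3% of the genes that interval lay wholly inside a 2-fold difference in either direction, and for 69.4% inside 1.5-fold. Without ICH replicate 5 these shares were 83.9% and 63.5%. The intervals are per gene, not adjusted, and rest on a spread shared by all 11 libraries.

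With all 6 libraries, low and high genes differed in the balance of directions. Genes of 1 to 10 CPM had a median log2 fold change of −0.07, and at unadjusted p under 0.05 there were 408 lower and 169 higher ones. Between 10 and 100 CPM, 823 were lower and 526 higher. From 100 to 1000 CPM the balance turned, with 137 lower and 208 higher and a median of 0.02. Among the 59 genes of 1000 CPM and over, 5 were lower and 12 higher and the median was 0.08. Genes called by edgeR without ICH replicate 5, a stricter threshold, did not turn to higher. They were 88 lower and 89 higher from 100 to 1000 CPM, and 4 lower and 4 higher from 1000 CPM. The median over all genes also moved between settings, from −0.018 here to −0.004 with the 6 libraries alone. The median SE fell from 0.23 in genes of 1 to 10 CPM to 0.08 in genes of 100 to 1000 CPM. The 542 genes under 1 CPM had a median SE of 0.42, and 5.54% of them were under p of 0.05, against 15.7% to 16.2% in the 3 classes from 1 to 1000 CPM. No gene was at 0 counts in all libraries of one group and counted in every library of the other (0 in each direction). Genes counted in only some libraries of one group were not looked for. Of the 15094 genes in the table, 15055 to 15068 had a count in each library, so a gene absent from a whole group could hardly appear. This count therefore does not show whether genes are found in only treated or only untreated brain.

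**Figure D2:**
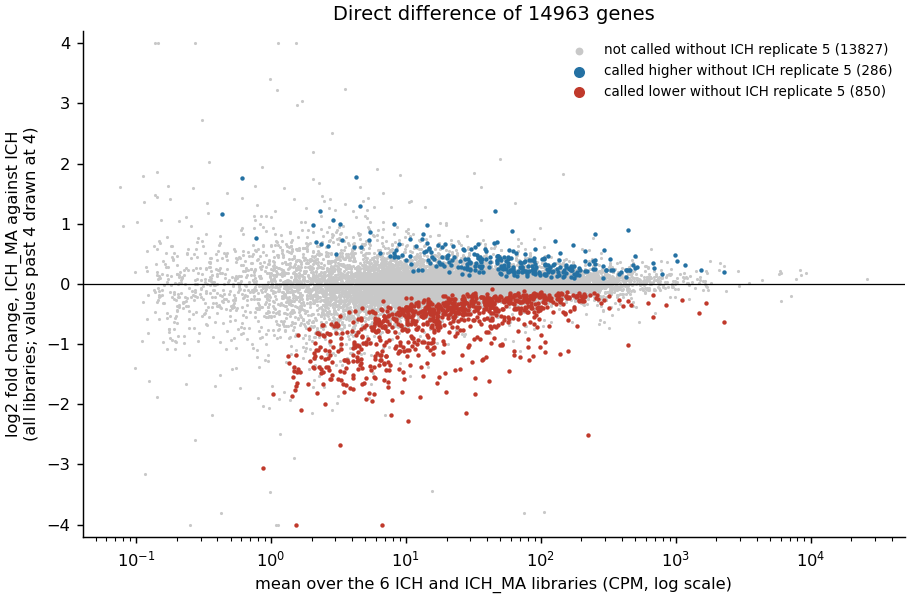
Log2 fold change of ICH_MA against ICH with all libraries (vertical axis, values past 4 drawn at 4) against the mean CPM over the 6 libraries (horizontal axis, log scale), 1 point per gene. Colours mark genes that edgeR called after ICH replicate 5 was left out, 286 higher (blue) and 850 lower (red, those also tested with all libraries). Red points reach further from 0 than blue ones. They lie mostly at 1 to 100 CPM, as do most genes tested (3633 at 1 to 10 CPM and 8604 at 10 to 100 CPM).

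Leaving out 1 library at a time showed how far the count of called genes depended on each. Without ICH replicate 5, edgeR called 286 genes higher (1.91% of 14982) and 851 lower (5.68%) in ICH_MA. Without ICH replicate 1 or 2, or any one of the ICH_MA libraries, it called 0. The smallest adjusted p was then 0.0667 without ICH replicate 1, 0.193 without replicate 2, and 0.12 to 0.322 without an ICH_MA library. At unadjusted p under 0.05, leaving out ICH replicates 1, 2 and 5 in turn gave 1276, 1888 and 3586 genes, and leaving out ICH_MA replicates 1, 2 and 3 gave 1933, 1751 and 1767. For ICH replicates 1, 2 and 5 left out, the median absolute log2 fold change was 0.11, 0.13 and 0.15. These 3 comparisons each had 2 untreated libraries, and their median SE was 0.13, 0.13 and 0.12. Leaving out the untreated library nearest to the treated ones tends to widen the difference between the groups. The calls and adjusted p without ICH replicate 5 are therefore descriptions.

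**Figure D3:**
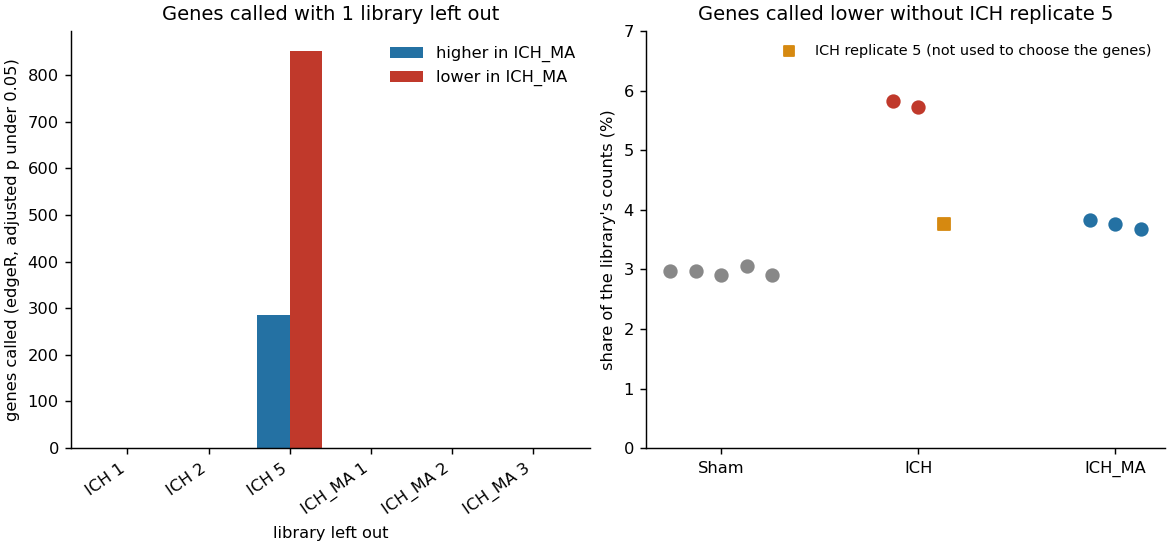
Left, number of genes edgeR called at adjusted p under 0.05 (vertical axis) when the library on the horizontal axis was left out, higher (blue) and lower (red) in ICH_MA. Right, share of each library's counts in the 851 genes called lower without ICH replicate 5; each symbol is 1 library, and the square, ICH replicate 5 (3.77%), lies among the ICH_MA libraries (3.69% to 3.83%).

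The 851 genes called lower without ICH replicate 5 were the larger group in number and in size of difference. Their median log2 fold change in that fit was −0.71, and 275 were at least 2-fold lower. They were genes of moderate level, with a median of 19.4 CPM, and 1 of the 850 tested with all libraries was under 1 CPM. They took 5.83% of counts in ICH replicate 1 and 5.74% in replicate 2. In ICH_MA replicates 1, 2 and 3 they took 3.83%, 3.76% and 3.69%. These libraries chose the genes, so that gap is a description. Neither ICH replicate 5 nor the sham libraries decided on which side a gene fell. ICH replicate 5 gave 3.77%, inside the range of the treated libraries. The sham libraries gave 2.9% to 3.06%, below all 6.

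The 286 genes called higher were more abundant, with a median of 60.5 CPM, and differed less. Their median log2 fold change without ICH replicate 5 was 0.43, and 19 were at least 2-fold higher. Their share of counts was 2.93% and 3.06% in ICH replicates 1 and 2 and 3.8%, 3.94% and 4.01% in ICH_MA replicates 1, 2 and 3. ICH replicate 5 lay between, at 3.64%. The sham libraries, at 3.74% to 3.83%, overlapped the lowest treated library. In these higher genes, therefore, treated brain was at or slightly above the sham share, and in the lower genes it was above the sham share.

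With ICH replicate 5 put back, all 286 higher genes and all 850 lower genes kept their direction, with median log2 fold changes of 0.32 and −0.51. Of these, 231 higher and 705 lower genes were under an unadjusted edgeR p of 0.05 (background 6.23% and 9.26%). Complete separation over all 6 libraries held for 157 of the 286 (background 7.87%) and 296 of the 850 (background 9.14%). These counts, and the kept direction, rest on the libraries that chose the genes, so they are descriptions.

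Each library was then placed, gene by gene, by a comparison that had not used it. For the genes at unadjusted p under 0.05 without that library, its log2 CPM was set on a line from the mean of the opposite group (0) to the mean of the rest of its own group (1). Untreated libraries differed widely on this scale. ICH replicate 1 had a median position of 1.2 over 1274 genes, and 81.4% of the genes lay nearer to its own group. ICH replicate 2 had 0.712 over 1887 genes, with 63.7% nearer to its own group. ICH replicate 5 had 0.149 over 3583 genes, with 21.3% nearer to its own group. Treated libraries were alike, with medians of 0.687, 0.776 and 0.793 for ICH_MA replicates 1, 2 and 3 and 65.8% to 75.4% of genes nearer to their own group. The sets of genes differ between libraries, and the genes of a library are not independent, so these positions carry no p. For ICH replicates 1 and 2, the mean of the rest of their group includes ICH replicate 5, so the positions within ICH are linked.

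**Figure D4:**
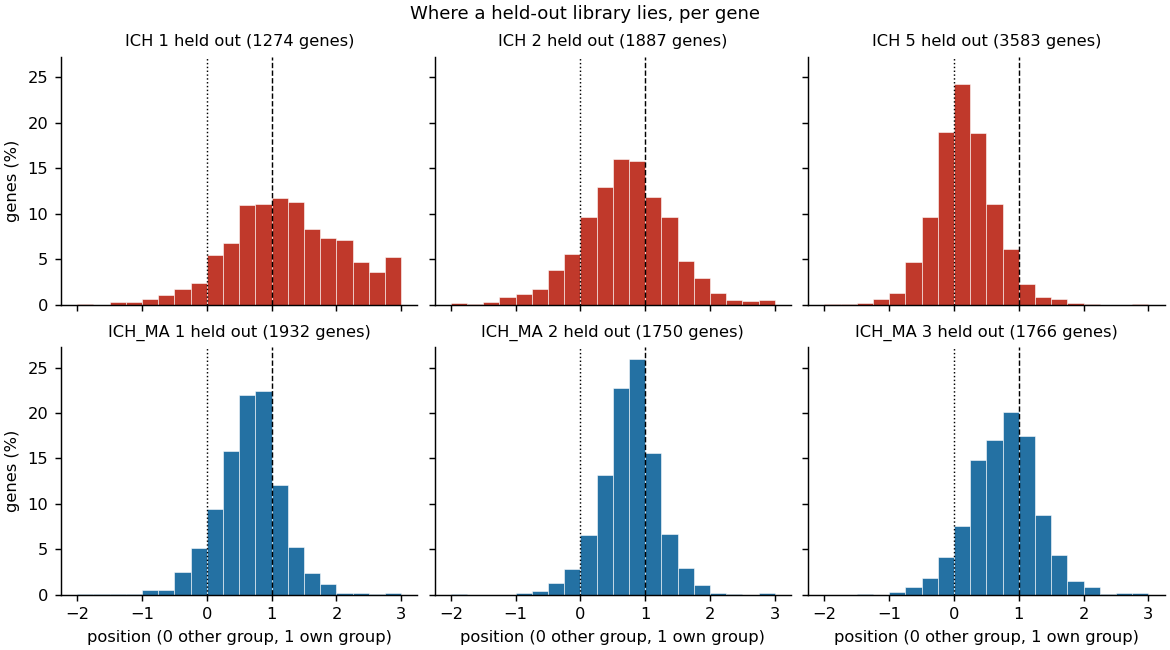
Distribution over genes (percent, vertical axis) of the position of each held-out library between the mean of the opposite group (0, dotted line) and the mean of the rest of its own group (1, dashed line), for genes at unadjusted p under 0.05 without it; values past −2 or 3 are in the end bins. The panel of ICH replicate 5 centres near 0 (median 0.149), the other 5 between 0.687 and 1.2.

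The position of ICH replicate 5 differed by direction. Over the 2197 genes lower in ICH_MA its median was 0.0891, and over the 1386 higher genes it was 0.254. In the genes that passed the adjusted test without it, the contrast was wider. It lay at 0.0355 over 850 lower genes, with 6.35% nearer to the untreated libraries, and at 0.262 over 286 higher genes, with 24.1%. For 54.9% of those higher genes it was still on the untreated side of every treated library. For the lower genes this was 34.8%, and 21.8% lay past all treated libraries on the far side. The other ICH libraries showed the opposite order on their own genes. Medians were 0.912 for lower and 0.557 for higher ones in ICH replicate 2, and 1.26 and 1.12 in replicate 1. Their own-group mean includes ICH replicate 5, so this order depends on its position and is not a separate observation.

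DESeq2 gave a different count from the same libraries. Of 14956 genes it called 195 higher and 282 lower in ICH_MA (477 in all), with median log2 fold changes in edgeR of 0.45 and −0.74. All of them were under an unadjusted edgeR p of 0.02, and their edgeR adjusted p ran from 0.176 to 0.242. Nearly all the higher genes (188 of 195, background 7.87%) and 219 of the 282 lower ones (background 9.14%) were completely separated. The same libraries gave the calls and the separation. The 477 genes shared 355 with the 1137 that edgeR called without ICH replicate 5, which is 74.4% of the former and 31.2% of the latter. Without ICH replicate 5 DESeq2 called 2017 genes, and 21 of the 477 were no longer among them. Without ICH replicate 1 it called 83 and 406 of the 477 were lost. Without replicate 2 it called 230 and 332 were lost. With ICH_MA replicate 1, 2 or 3 left out it called 256, 133 and 125.

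A small set was called by DESeq2 whichever of the 6 libraries was left out. It held 35 genes, 25 higher and 10 lower in ICH_MA, all completely separated (background 7.87% higher and 9.14% lower). The libraries that chose the genes are the same. Higher genes outnumbered lower ones in this set, the opposite of the 477 from which it was drawn. Log2 fold changes in edgeR ran from 0.24 to 1.77 in the 25 and from −0.29 to −1.54 in the 10. Mean levels were 4.24 to 1170 CPM in the 25 and 7.66 to 165 CPM in the 10. The edgeR adjusted p was 0.176 for each of the 35.

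The 2 higher and the 2 lower genes with the smallest edgeR p, among separated genes of at least 1 CPM, are given by ID. All 4 belong to the 35, and edgeR called each of them without ICH replicate 5. They were picked for a small p and complete separation in these same libraries. Their separation, calls and intervals are therefore descriptions. ENSRNOG00000011419 stood at 87.6, 87.2 and 94.6 CPM in ICH replicates 1, 2 and 5 and at 120, 117 and 122 CPM in ICH_MA replicates 1, 2 and 3. Sham libraries had 90.2 to 104 CPM (median 101). The treated libraries were thus above all 8 others, and sham and ICH overlapped. ICH had 89.8 ± 4.19 CPM (SD, n = 3) and ICH_MA 120 ± 2.54, a log2 fold change of 0.41 ± 0.06 (SE) with a 95% interval of 0.28 to 0.54 (edgeR adjusted p = 0.176). The adjusted p was 0.00345 without ICH replicate 5, where the log2 fold change was 0.45, and 2.31e-06 with DESeq2. Over 21 alternatives it ran from 2.31e-06 to 0.442.

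ENSRNOG00000005437 showed the same pattern at a lower level. It had 30.2, 27.5 and 29.5 CPM in ICH replicates 1, 2 and 5, and 38.4, 39.3 and 40.1 CPM in ICH_MA replicates 1, 2 and 3. Sham libraries had 26.9 to 31.8 CPM (median 30), so ICH lay within the sham range and every treated library above it. The log2 fold change of ICH_MA against ICH was 0.43 ± 0.07 (SE; edgeR adjusted p = 0.176, and 5.18e-05 to 0.442 over the alternatives). Without ICH replicate 5 it was 0.45 (edgeR adjusted p = 0.0112).

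ENSRNOG00000007234 was the counterpart among the lower genes. ICH replicates 1, 2 and 5 had 193, 190 and 189 CPM, inside the sham range of 177 to 215 CPM (median 190). ICH_MA replicates 1, 2 and 3 had 132, 149 and 140 CPM, below all 8 other libraries. The means were 190 ± 2.46 CPM in ICH (SD, n = 3) and 140 ± 8.55 in ICH_MA, a log2 fold change of −0.44 ± 0.08 (SE; edgeR adjusted p = 0.176, and 0.000173 to 0.442 over the alternatives). Without ICH replicate 5 it was −0.45 (edgeR adjusted p = 0.0123).

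ENSRNOG00000018740 followed another pattern. It had 4.53 to 5.15 CPM in sham (median 4.7), 16.6, 19.3 and 12 CPM in ICH replicates 1, 2 and 5, and 7.99, 8.92 and 8.3 CPM in ICH_MA replicates 1, 2 and 3. The 3 groups did not overlap, and treated brain lay between sham and untreated hemorrhage. ICH had 16 ± 3.67 CPM (SD, n = 3) and ICH_MA 8.4 ± 0.477, a log2 fold change of −0.93 ± 0.15 (SE; edgeR adjusted p = 0.176, and 0.000115 to 0.442 over the alternatives). Here too ICH replicate 5 was the untreated library nearest to the treated ones. Without it the log2 fold change was −1.10 (edgeR adjusted p = 0.000876).

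**Figure D5:**
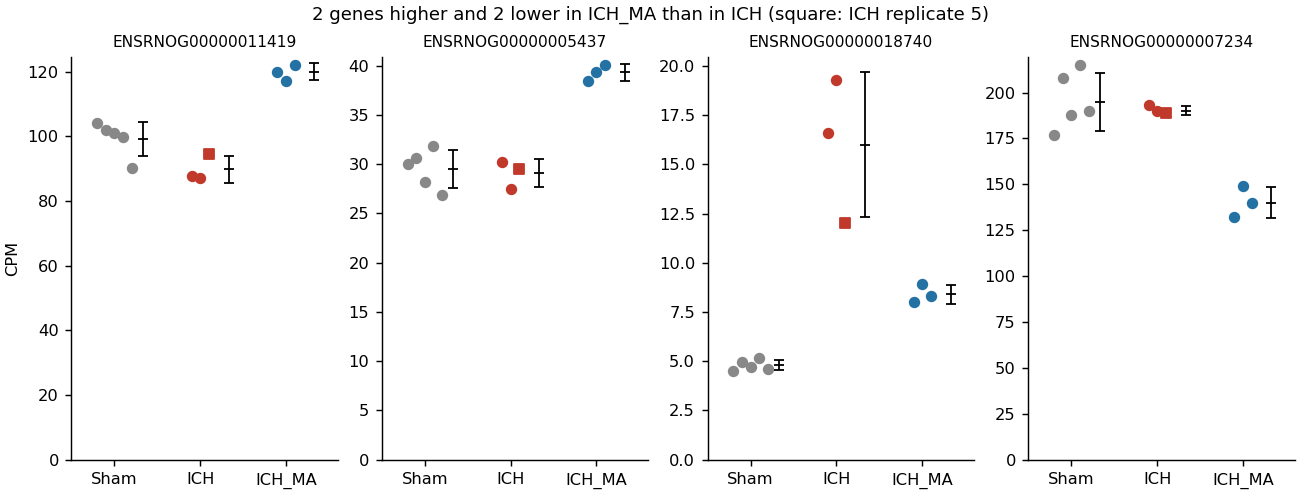
CPM (vertical axis, from 0) of the 4 genes in sham, ICH and ICH_MA; each symbol is 1 library, the square is ICH replicate 5, and the black bar is the mean ± SD. In ENSRNOG00000018740 the groups do not overlap and ICH_MA lies between the others, and in the other 3 genes sham and ICH overlap and ICH_MA lies apart from both.

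Genes in which treated brain lay outside both sham and untreated hemorrhage were counted over the whole table, a pattern chosen after these values were seen. All 3 ICH_MA libraries were above all 8 others for 155 genes (1.04% of those tested) and below all 8 for 134 (0.896%). For comparison, the 3 ICH libraries were above all 8 others for 622 of the 14963 genes tested and below for 500. The level that order alone would give was not worked out. The higher set differed more from ICH, with a median log2 fold change of 0.41 against −0.20 in the lower set. A difference of at least 1.5-fold from ICH was seen in 46 of the 155 and 6 of the 134. With 1 ICH library fewer these counts rose, and least when replicate 5 was the one left out. They were 193 above and 185 below without replicate 5, 229 and 198 without replicate 1, and 239 and 274 without replicate 2. DESeq2 called 48 of the 155 and 22 of the 134, against 3.19% of all genes in both directions together. EdgeR without ICH replicate 5 called 29 and 21, against 1.91% of all genes higher and 5.68% lower. The sets were defined by ICH_MA lying outside every ICH library, so a larger share called follows from the choice. In the set of 35, 14 of the 25 higher and 2 of the 10 lower genes had this pattern.

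Many of the very large differences were in genes that also varied widely among sham rats. Among genes of at least 1 CPM, 9 were at least 4-fold higher and 18 at least 4-fold lower in ICH_MA. In 4 of the 9 and 12 of the 18, the sham libraries alone spanned at least 4-fold, which was so for 1.48% of all genes of at least 1 CPM. Of the 9, 5 were completely separated (background 7.87% of all genes tested), and of the 18, 9 (background 9.14%). The same libraries gave the size of difference, so a larger share follows from the choice. Among the separated ones, 3 higher and 3 lower genes had sham libraries that spanned less than 4-fold. One lower gene, singled out after its values were seen, shows the pattern. It had 31, 27.3 and 27.3 CPM in ICH replicates 1, 2 and 5 and 4.41, 1.77 and 1.72 CPM in ICH_MA replicates 1, 2 and 3. Sham replicates 2 to 5 had 38.8 to 59.9 CPM, but sham replicate 1 had 1.45 CPM, at the level of the treated rats. Its log2 fold change was −3.44 ± 0.90 (SE; edgeR adjusted p = 0.176). Without sham replicate 1, which enters through the shared spread, the scaling and the filter, its log2 fold change was −3.43, the adjusted p was 0.00889 and it was the 1 gene called. EdgeR did not call it without ICH replicate 5 (adjusted p = 0.0603). With all libraries DESeq2 called it (DESeq2 adjusted p = 0.0173).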

How the data were processed

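RNA was sequenced from brain of rats 72 h after modelling. The authors deposited whole-number counts per Ensembl gene ID, without normalization. The submitters' processing notes name Bowtie2, RSEM 1.3.1, DESeq2 1.4.5 and build mRatBN7.2, with no roles. The sources used here do not give the annotation, use of strand, rounding of RSEM values or any filter. Reads of near-identical or overlapping genes may be divided between IDs. None of the 15094 IDs matched the 47357 genes of the RefSeq table (0 matched), so 23 gene lists, 17 marker lists and promoter sequences were not used.

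Genes passed filterByExpr (minimum count 10, total 15), which removed 131 of 15094. All 11 libraries entered 1 edgeR 4.0.16 quasi-likelihood model (R 4.3.3) with TMM scaling and a mean per group. The contrast was ICH_MA minus ICH, with Benjamini-Hochberg adjustment and a threshold of 0.05. CPM uses TMM-scaled totals, and log2 CPM a prior count of 2. SE is the log2 fold change over the root of F. DESeq2 1.42.0 and limma 3.58.1 were alternatives, with RLE and upper-quartile scaling, other filters, robust estimation, the 6 libraries alone, a replicate block and each library left out. The DESeq2 fits with a library left out and the further fits without ICH replicate 5 were chosen after seeing the data. The functions were tested on simulated data with 200 changed genes. Named genes were the 2 higher and 2 lower genes with the smallest p among separated genes of at least 1 CPM. The rule asked for symbols, which could not be applied. The comparison and lists were chosen with earlier results of these data known.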

Additional observations from a re-analysis of the deposited data

How the results depend on the processing

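The count of 0 genes at an edgeR adjusted p under 0.05 stayed at 0 in 18 of 21 alternatives, among them limma-voom with and without quality weights, RLE and upper-quartile scaling, other filters and the 6 libraries alone. DESeq2 gave 477. Leaving out 1 library gave 0 to 1137, with 1137 without ICH replicate 5 and 1 without Sham replicate 1. At unadjusted p under 0.05 leaving out 1 library moved the count of 2318 to between 1276 (ICH replicate 1) and 3586 (ICH replicate 5). The 1137 genes became 2017 with DESeq2, 1336 with limma-voom and 492 with only the ICH and ICH_MA libraries in the model, and 793, 571 and 542 when ICH_MA replicate 1, 2 or 3 was left out as well. Of the 492, 440 were among the 1137. The DESeq2 count of 477 was 83 to 2017 with 1 library left out. With the replicate block the count was 0, with 1984 genes at unadjusted p under 0.05 against 2318. Deviations of same-numbered ICH and ICH_MA libraries from their group means correlated at 0.0663 and −0.0736, so the numbers were not taken as pairs. The 4 named genes kept their direction in all 21 alternatives and were called in 2, DESeq2 and without ICH replicate 5. They were chosen by the smallest p in these libraries, so a kept direction was likely in advance. At least 2-fold higher genes numbered 149 without ICH replicate 2 and 57 with the 1 CPM filter, against 88. The medians over gene lists were not run, since the lists could not be matched. Depth limits genes under 1 CPM, whose median SE was 0.42. Causes of these shifts were not tested.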
